A study of Mus musculus with 8 samples.

Results

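The replication-dependent histone genes of the mouse hippocampus were examined in wild-type and Mbd2-/- mice. They were chosen by name, as every gene whose symbol begins with Hist and a cluster number from 1 to 4 followed by h, which gave 58 of the 19201 genes measured. These comprised 6 genes of the linker histone H1, 14 of H2A, 16 of H2B, 10 of H3 and 12 of H4. Of the 58 genes, 49 reached 10 normalized counts on average across the 8 libraries and were tested, and 9 did not. A normalized count is the number of reads on a gene divided by a factor that puts the libraries on 1 scale.

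RNA was sequenced from 4 wild-type libraries, labelled C57BL/6, and 4 Mbd2-/- libraries, labelled as the knockout on a C57BL/6 background. Each library pooled the hippocampi of 2 mice aged 10 to 12 weeks, and all mice were littermates of heterozygous parents. Mbd2 encodes a protein that binds methylated CpG sites, and the knockout is constitutive, so every cell type carried the allele throughout development. Ribosomal RNA was depleted from total RNA, so that transcripts could enter the libraries whether or not they were polyadenylated.

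Histones package DNA into nucleosomes, in which pairs of H2A, H2B, H3 and H4 form the core and H1 binds the linker. Replication-dependent histone genes are known for strong transcription in S phase, and their mRNAs end in a conserved stem-loop that is bound by the protein Slbp instead of a poly(A) tail. Some of them also give polyadenylated mRNAs in cells that no longer divide, and most adult hippocampal neurons belong to such cells. In whole tissue, fewer cells of a type and less RNA per cell cannot be told apart.

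The 58 genes fall into 4 groups by name. In the mm9 genome 48 Hist1 genes lie on chromosome 13, 6 Hist2 genes on chromosome 3, 3 Hist3 genes on chromosome 11 and Hist4h4 alone on chromosome 6. Hist1h2al, at chr13:51298057-51298434, lies far from the other Hist1 genes. In the GENCODE vM1 annotation, 54 had a single exon and 4 had 2 exons. Hist3h2bb-ps is annotated as a pseudogene, and the other 57 have a coding sequence. To check the name of the group against sequence, the 200 bases after each stop codon were searched for a stem of 6 base pairs around a loop of 4 bases. The search also required GG at the start, CC at the end, and TTT and A at fixed places in between. The forms found share these letters because of the search, and a stem-loop without them would have been missed. A stem-loop was found in 50 of the 57 genes, at a median of 30 bases after the stop codon and within 21 to 55 bases. It had 6 forms, and 1 gene of each form is shown here with the 16 bases of the stem-loop in capitals and 5 bases on each side.

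The most frequent form was found in 30 genes, among them Hist1h2bc (chr13:23776516-23776531 for the capitals, plus strand), the H2B gene with the most reads. The next forms were found in 8 genes (Hist1h3e, chr13:23653772-23653787, minus strand), 7 genes (Hist1h4c, chr13:23789958-23789973, minus strand), 2 genes (Hist1h4i, chr13:22132835-22132850, minus strand), 2 genes (Hist1h4b, chr13:23849235-23849250, plus strand) and 1 gene (Hist2h2ac, chr3:96024341-96024356, minus strand). The sequences are from the mm9 assembly, in the direction of the transcript.
Hist1h2bc: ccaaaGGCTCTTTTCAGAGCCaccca
Hist1h3e: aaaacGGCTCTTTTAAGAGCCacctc
Hist1h4c: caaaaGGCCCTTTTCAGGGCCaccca
Hist1h4i: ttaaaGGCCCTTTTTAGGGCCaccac
Hist1h4b: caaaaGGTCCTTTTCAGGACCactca
Hist2h2ac: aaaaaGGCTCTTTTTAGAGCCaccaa

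The 3 forms shown from Hist1h4c, Hist1h4i and Hist1h4b were found in H4 genes and in no other class, whereas the 30 genes of the most frequent form were spread over H1, H2A, H2B and H3. The polyadenylation signal AATAAA stood in the last 40 bases of 10 of the 58 transcripts, against 53.4% of 22238 coding transcripts. In 11 genes the annotated transcript stopped short of the end of the stem-loop, so its last 40 bases cannot show how the mRNA ends. In 16 genes the annotated transcript ran more than 100 bases past the stem-loop. Among these were Hist1h2bc, with a second exon and AATAAA near its end, and Hist1h2ac.

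Members of 1 class share much of their sequence. The 12 H4 genes encode 1 protein, the 10 H3 genes 2 proteins, the 14 H2A genes 8, the 15 coding H2B genes 10 and the 6 H1 genes 6. When the transcripts were divided into all windows of 100 bases, the length of a read, 50 of the 58 genes shared at least 1 window with another gene, and 14 shared over 50% of theirs. Reads from shared windows can be split between copies or lost, so the level of a core histone gene that shares windows is uncertain. Some core histone genes, such as Hist1h4d and Hist2h2be, shared none. The median share of such windows was 0.779% for H1, 31.5% for H2A, 37.2% for H2B, 34.7% for H3 and 32.6% for H4.

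Before the histone values are given, the libraries need a description. The libraries held 8087750 to 23790825 reads assigned to genes. The knockout allele leaves the first exon of Mbd2 in place, so its gene count is a weak check of the labels. Mbd2 had normalized counts of 295, 363, 371 and 354 in wild-type libraries and 244, 239.6, 339 and 217 in Mbd2-/- libraries, with a log2 fold change of -0.43 (SE 0.117, limma, Benjamini-Hochberg adjusted p = 0.0174, exact two-sided permutation p = 0.0571), and Mbd2-/- 3 lay above wild-type 1. Without wild-type 3, Mbd2-/- 1 or Mbd2-/- 2 this call was lost, at adjusted p = 0.0624, 0.0539 and 0.0576. All 17 choroid plexus markers were higher in Mbd2-/- libraries (median log2 fold change 0.87, led by Ttr at 1.32), and 11 of 14 thalamus markers were lower (median -0.51, with Slc17a6 at -0.66). The summed normalized counts of the choroid plexus markers were 24491 to 26207 in wild-type and 47362 to 53757 in Mbd2-/- libraries, and the part of this tissue difference in the histone values was not tested. Of 10 hippocampal neuron markers 2 were higher, among them Bok at 0.51, and 3 were lower, among them Wfs1 at -0.31. Over all tested genes, 12.0% were called higher and 10.0% lower. Of the erythroid markers only Alas2 was tested, and it was lower (-0.23).

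Histone RNA was higher in 3 of the 4 Mbd2-/- libraries than in any wild-type library. In reads per 1000000 reads on all genes (RPM), the 58 genes summed to 734, 745, 787 and 842 RPM in wild-type 1 to 4 and to 1052, 892, 1025 and 742 RPM in Mbd2-/- 1 to 4. Mbd2-/- 4 lay at the level of the lowest wild-type libraries, so the genotypes overlapped. The means were 777 ± 48.7 and 928 ± 143 RPM (SD, n = 4 each), a ratio of 1.19.

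In all 5 classes Mbd2-/- 4 was the lowest of the Mbd2-/- libraries and the other 3 lay above every wild-type library. H4 genes, which took 43.0% of the wild-type histone counts, had 305 to 380.0 RPM in wild-type libraries and 449.9, 392, 459 and 320.1 in Mbd2-/- 1 to 4. H1 genes had 172 to 188 in wild-type libraries and 238, 198, 243 and 169.9 in Mbd2-/- 1 to 4. Mbd2-/- 4 lay within the wild-type range for H4 and below it for H1. The H2B range was 109 to 126 in wild-type libraries, with 176, 138, 148 and 118 in Mbd2-/- 1 to 4. H2A had 67.7 to 78.0 against 89.4, 85.7, 91.2 and 70.6, and H3 had 62.0 to 77.2 against 99.6, 77.6, 83.2 and 63.3.

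Gene by gene, 48 of the 49 tested histone genes had a positive log2 fold change, and the median was 0.26, against 0.00 over all 14504 tested genes, of which 50.0% were positive. At a Benjamini-Hochberg adjusted p under 0.05 in limma, 8 of the 49 were called higher, where 12.0% of all tested genes were called higher. None was called lower, where 10.0% of all genes were. In 3 histone genes every Mbd2-/- library lay above every wild-type library, against 12.1% of all tested genes, and in 0 they all lay below, against 11.5%. At an unadjusted p under 0.05 in limma 19 histone genes passed, 38.8%, all of them higher, where 18.5% of all tested genes passed and were higher and 17.0% passed and were lower. Most of the positive differences thus did not pass the adjusted threshold.

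**Figure D1:**
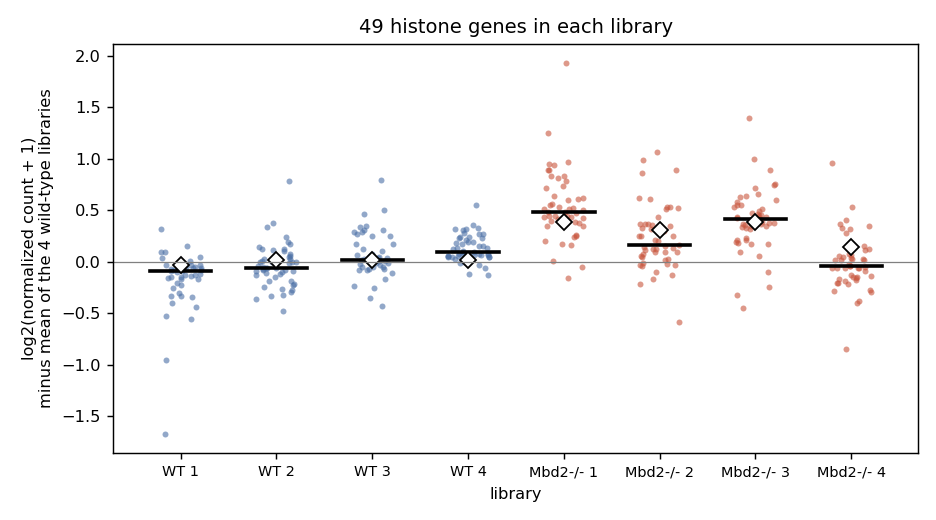
Each point is 1 of the 49 tested histone genes in 1 library, plotted as its log2(normalized count + 1) minus the mean of the 4 wild-type (WT) libraries, with a black bar for the median of the histone genes and a diamond for the median of other genes with transcripts under 1000 bases. The histone medians are 0.48, 0.17 and 0.41 in Mbd2-/- 1 to 3 and -0.04 in Mbd2-/- 4, where wild-type libraries range from -0.08 to 0.10.

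The plot by library shows that the difference was not shared by all Mbd2-/- pools. Mbd2-/- 1 held the highest value of the 8 libraries in 26 of the 49 genes and Mbd2-/- 3 in 17, whereas Mbd2-/- 4 held it in 0 and the lowest value in 10. In 24 genes Mbd2-/- 1, 2 and 3 all lay above the highest wild-type library, against 19.6% of all tested genes, a comparison made after these 3 libraries were seen to be high. When Mbd2-/- 4 was left out, 26 histone genes were called higher, with 17.9% of all tested genes. When another library was left out the number was 3 without wild-type 1, 3 without wild-type 2, 2 without wild-type 3, 7 without wild-type 4, 1 without Mbd2-/- 1, 3 without Mbd2-/- 2 and 2 without Mbd2-/- 3. The share of all tested genes called higher in these settings was 8.49%, 9.52%, 8.23%, 8.49%, 8.14%, 8.07% and 10.7%, in the same order.

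**Figure D2:**
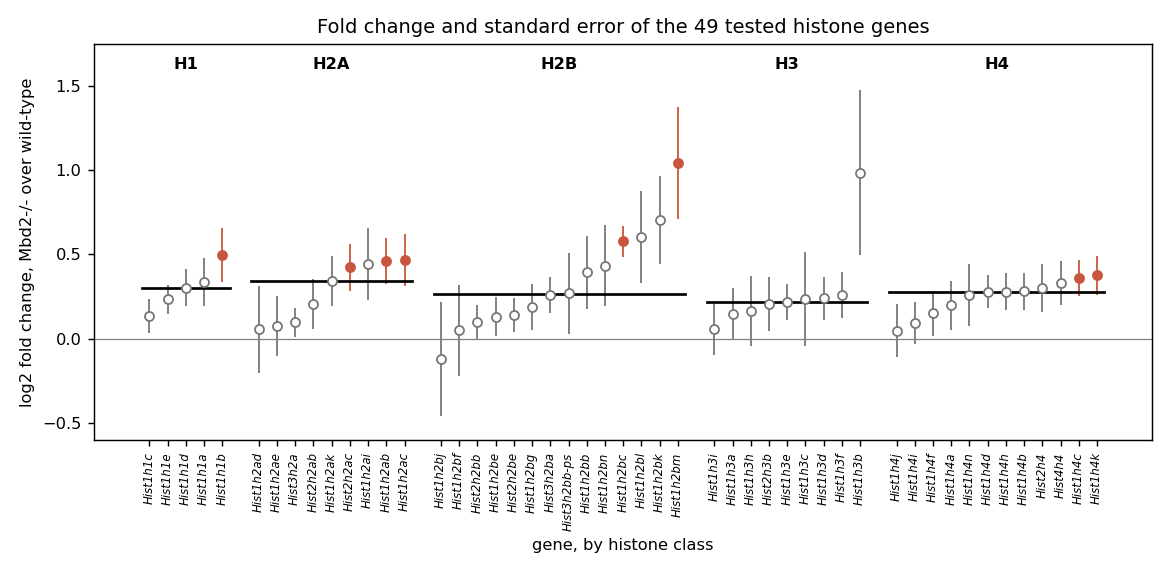
Log2 fold change of Mbd2-/- over wild-type with its standard error for the 49 tested histone genes, ordered within each class, with filled points for the 8 called higher and a black bar for the class median. The medians are 0.30 for H1, 0.34 for H2A, 0.26 for H2B, 0.22 for H3 and 0.28 for H4, and only Hist1h2bj lies below 0.

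Linker histone genes were the least affected by shared sequence, as their windows show. Hist1h1b, which encodes the H1 subtype H1.5, rose. It had normalized counts of 40.5, 48.2, 48.3 and 59.0 in wild-type 1 to 4 and 84.3, 69.5, 71.7 and 53.8 in Mbd2-/- 1 to 4, so that Mbd2-/- 4 lay inside the wild-type range and the other 3 above it. Its log2 fold change was 0.50 (SE 0.159, limma, Benjamini-Hochberg adjusted p = 0.0340).

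The 3 H1 genes with the most reads were not called. Hist1h1e had 790.0 to 855 in wild-type libraries and 1119, 927, 1082 and 791 in Mbd2-/- 1 to 4, a log2 fold change of 0.23 (SE 0.0877, adjusted p = 0.0669). Hist1h1d had 388 to 487 and 653, 460, 598 and 444 (0.30, SE 0.112, adjusted p = 0.0645). For Hist1h1c the values were 816 to 892 and 974, 908, 1159 and 732 (0.13, SE 0.102, adjusted p = 0.367). All 3 were lowest, among the Mbd2-/- libraries, in Mbd2-/- 4. Hist1h1t, the testis H1, was not tested, with 11 reads over all libraries.

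Among H2B genes, Hist1h2bc gave the clearest difference of all histone genes. Its normalized counts were 298, 379, 340 and 329 in wild-type 1 to 4 and 591, 513, 480 and 433 in Mbd2-/- 1 to 4. Every Mbd2-/- library, Mbd2-/- 4 included, lay above every wild-type library. The means were 337 ± 33.4 and 504 ± 66.5 (SD, n = 4), and the log2 fold change was 0.58 (SE 0.0930, limma, adjusted p = 0.000604, exact two-sided permutation p = 0.0286, the smallest that 4 against 4 allows). Hist1h2bc shared 42.1% of its windows with other genes, and 206 of these 268 windows with Hist1h2bg, which encodes the same protein and was not called (0.19, adjusted p = 0.347).

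Hist1h2bm had the highest log2 fold change of the group at 1.04 (SE 0.332, adjusted p = 0.0342), from few reads. Its normalized counts were 4.50, 17.3, 10.0 and 10.6 in wild-type libraries and 24.3, 20.1, 27.1 and 14.4 in Mbd2-/- 1 to 4, and wild-type 2 lay above Mbd2-/- 4. Hist1h2bl also had groups that did not overlap, at 7.29 to 12.2 against 12.5 to 18.3, but it was not called (0.60, SE 0.272, adjusted p = 0.121). Hist1h2bj had the lowest log2 fold change of the 49, -0.12 (SE 0.339, adjusted p = 0.831), with 30.6 in Mbd2-/- 1 and 10.1 to 11.5 in the other 3.

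The next H2B genes by reads, Hist2h2bb and Hist3h2ba, were not called. Hist2h2bb had 343 to 354 in wild-type libraries and 442, 388, 392 and 287 in Mbd2-/- 1 to 4 (0.10, SE 0.101, adjusted p = 0.513), and Mbd2-/- 4 was the lowest of all 8. Hist3h2ba had 220.3 to 239 and 332, 276, 298 and 218 (0.26, SE 0.105, adjusted p = 0.0850), again with Mbd2-/- 4 the lowest.

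**Figure D3:**
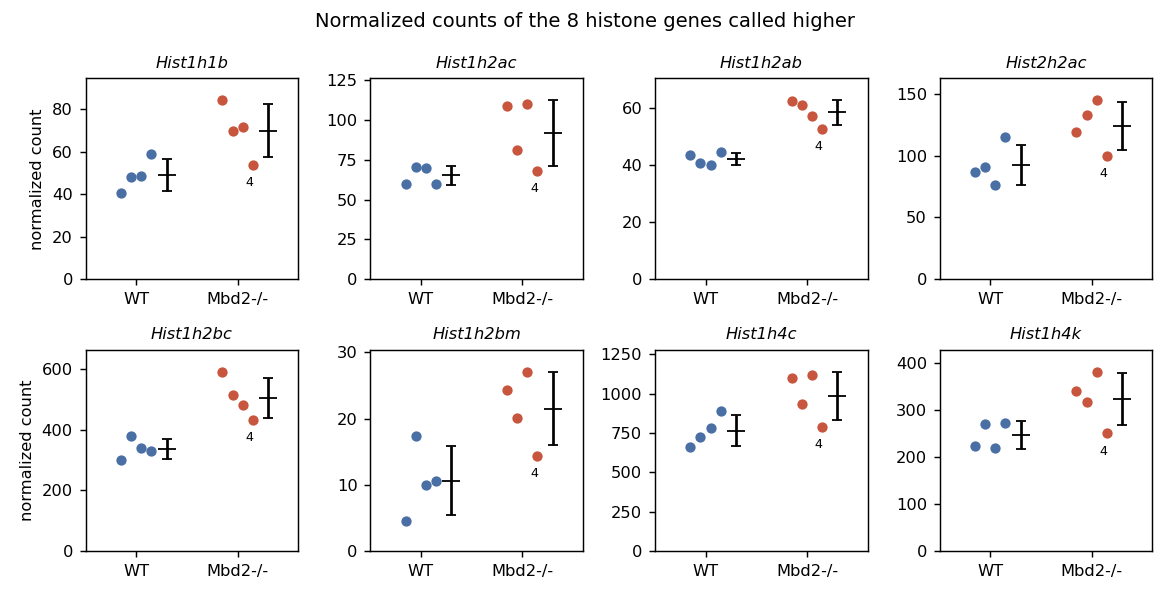
Normalized counts of the 8 histone genes called higher, with 1 point per library in the order 1 to 4 and the mean and SD beside each group, on axes that start at 0, and with Mbd2-/- 4 marked by its number. Mbd2-/- 4 is the lowest Mbd2-/- library in all 8 genes, and it clears the wild-type libraries only for Hist1h2bc, at 433 against 379 at most, and for Hist1h2ab, at 52.9 against 44.6.

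Of 9 tested H2A genes 3 were called higher. Hist1h2ab had 43.5, 40.6, 40.1 and 44.6 in wild-type libraries and 62.6, 61.3, 57.4 and 52.9 in Mbd2-/- 1 to 4, without overlap (0.46, SE 0.135, limma, adjusted p = 0.0227). Hist1h2ac had 59.95, 70.7, 70.2 and 60.02 against 109, 81.4, 110.0 and 68.2, with Mbd2-/- 4 inside the wild-type range (0.47, SE 0.152, adjusted p = 0.0370). Hist2h2ac had 86.9, 91.0, 76.6 and 115 against 119, 133, 145 and 99.9, with Mbd2-/- 4 below wild-type 4 (0.42, SE 0.138, adjusted p = 0.0373). The H2A gene with the most reads, Hist3h2a, had 444 to 561 against 458 to 589.7 and was not called (0.10, SE 0.0861, adjusted p = 0.448).

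H4 genes had the highest levels per length, and 2 of the 12 were called. In wild-type libraries Hist1h4d had 2715 normalized counts per kilobase of transcript, Hist1h4c 1933 and Hist1h4h 1802, where the lowest tested gene, Hist1h3b, had 13.7. Hist1h4c had normalized counts of 658, 725, 779 and 891 in wild-type libraries and 1101, 932, 1116 and 789 in Mbd2-/- 1 to 4, so that only Mbd2-/- 4 lay inside the wild-type range (0.36, SE 0.108, limma, adjusted p = 0.0287).

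Hist1h4k had 225, 272, 219 and 274 in wild-type libraries and 342, 318, 383 and 251 in Mbd2-/- 1 to 4 (0.38, SE 0.115, adjusted p = 0.0285). It shared 64.3% of its windows with other H4 genes, and the split of reads among them is unknown. Hist1h4d had 1004 to 1166 against 1449, 1265, 1498 and 1019 (0.28, SE 0.0981, adjusted p = 0.0534), and Hist1h4h had 710.2 to 993 against 1096, 1076, 1136 and 810.1 (0.28, SE 0.111, adjusted p = 0.0846). Neither was called, and Mbd2-/- 4 lay within the wild-type values in both.

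No H3 gene was called, and all 9 tested had a positive log2 fold change, from 0.06 to 0.99. The H3 genes with the most reads were Hist1h3e, with 270.1 to 317 against 402, 342, 383 and 267 (0.22, SE 0.107, adjusted p = 0.157), and Hist1h3f, with 144 to 203 against 229.8, 215, 229.5 and 146 (0.26, SE 0.139, adjusted p = 0.191). Hist1h3i had 88.0 to 143 against 99.9 to 158 and the lowest log2 fold change of the class (0.06, SE 0.155, adjusted p = 0.826). The difference in calls between the classes was not tested.

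The 9 genes under the filter had 7 to 79 reads over all 8 libraries. They were Hist1h1t, Hist1h2af, Hist1h2ag, Hist1h2ah, Hist1h2al, Hist1h2an, Hist1h2bh, Hist1h2bp and Hist1h3g, and no difference was detectable at this depth.

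Of the 8 calls, only that of Hist1h2bc held without every one of the libraries. It was called without each of the 8 libraries in turn, at adjusted p of at most 0.0048, and under the 13 alternatives that kept all libraries. The other 7 calls held without Mbd2-/- 4, but each was lost without at least 4 of the other libraries. Hist1h2ab was lost without 4 libraries (highest adjusted p = 0.0647), Hist1h4c without 5 (0.0882), Hist1h4k without 5 (0.101), Hist1h1b without 6 (0.116), Hist1h2bm without 6 (0.103), Hist2h2ac without 6 (0.131) and Hist1h2ac without 7 (0.126).

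Hist1h2bc and Hist1h2ac are transcribed away from each other, and both were called. Their annotated starts lie 251 bases apart. The 250 bases between them, at chr13:23775818-23776067 of mm9, are shown on the plus strand because they are the only such interval with both genes called. Capitals mark 3 motifs searched on both strands. They are the TATAAA motif (TTTATA where it lies on the minus strand), the CCAAT motif (then ATTGG) and the octamer ATTTGCAT, and no marked motif overlaps another. Hist1h2bc reads rightward from the end of the interval and Hist1h2ac leftward from its beginning.
Hist1h2ac-Hist1h2bc interval: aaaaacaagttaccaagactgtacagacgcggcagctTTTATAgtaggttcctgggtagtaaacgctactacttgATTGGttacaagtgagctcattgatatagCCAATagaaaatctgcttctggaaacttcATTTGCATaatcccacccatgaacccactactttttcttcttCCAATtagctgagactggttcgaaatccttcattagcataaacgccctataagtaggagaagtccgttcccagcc

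The interval held 1 TATAAA, 3 CCAAT and 1 ATTTGCAT. ATTTGCAT, the octamer bound by POU factors such as Pou2f1 and known from H2B promoters, was added to the search after the sequence was seen. In windows from 250 bases before to 50 bases after the annotated start, TATAAA was found in 32 of the 58 histone promoters (55.2%) and in 13.4% of 22239 promoters, and CCAAT in 49 (84.5%) and 37.5%. ATTTGCAT was found in 14 (24.1%) and in 1.77% of all promoters. Of these 14, 8 belonged to H2B and 6 to H2A genes, which in part share 1 interval. The 13 tested genes with ATTTGCAT held 5 of the 8 calls and had a median log2 fold change of 0.39. Hist1h2ac and Hist1h2bc, whose interval led to the search for this motif, are counted among these 13 genes and 5 calls. The split by motif was therefore not independent of the calls. The other 36 genes held 3 calls and had a median of 0.25, and the difference was not tested.

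Of the 10 pairs of an H2A and an H2B gene that start within 500 bases of each other, 7 had both genes tested. Both were called in 1 pair and 1 of the genes in another, Hist2h2ac with Hist2h2be. Hist2h2be had normalized counts of 119 to 133 in wild-type and 121 to 156 in Mbd2-/- libraries and was not called (0.14, adjusted p = 0.333). Hist1h2ai and Hist1h2bl had log2 fold changes of 0.44 and 0.60, Hist1h2ak and Hist1h2bn of 0.34 and 0.43, and Hist1h2bf and Hist1h2ad of 0.05 and 0.06, none of them called.

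The median was positive whatever the annotated 3′ end and the share of common windows. The 15 tested genes whose transcript ran more than 100 bases past the stem-loop had a median log2 fold change of 0.24 with 2 called, and the 30 with an end closer to it had 0.28 with 6 called. In the 3 tested genes that were searched without a match it was 0.14 with 0 called, and Hist3h2bb-ps, which has no stop codon to search from, had 0.27. The 7 genes that shared no window with another gene had a median of 0.30 with 1 called, and the 10 that shared over 50% had 0.32 with 1 called.

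Short transcripts of other genes also differed between the genotypes. Of 163 other tested genes whose longest transcript is under 600 bases, 63 were called higher, 38.7%, and 0 lower, with a median log2 fold change of 0.34. The 28 tested histone genes of this length had 5 called higher, 17.9%, and a median of 0.27. From 600 to under 1000 bases, 253 of 558 other genes were called higher (45.3%, median 0.29), beside 2 of 10 histone genes (median 0.25). Other genes of at least 4000 bases had a median of -0.10, with 202 higher and 993 lower of 4854. In both bins under 1000 bases the histone median lay below that of the other genes. From 1000 to under 2000 bases it lay above, at 0.24 for 7 histone genes with 0 called against 0.16 for other genes with 24.3% called higher, and from 2000 to under 4000 bases at 0.22 for 4 histone genes with 1 called against 0.01 and 9.50%. These lengths are those of the longest annotated transcript, and where that runs past the stem-loop the mRNA that ends there is shorter.

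**Figure D4:**
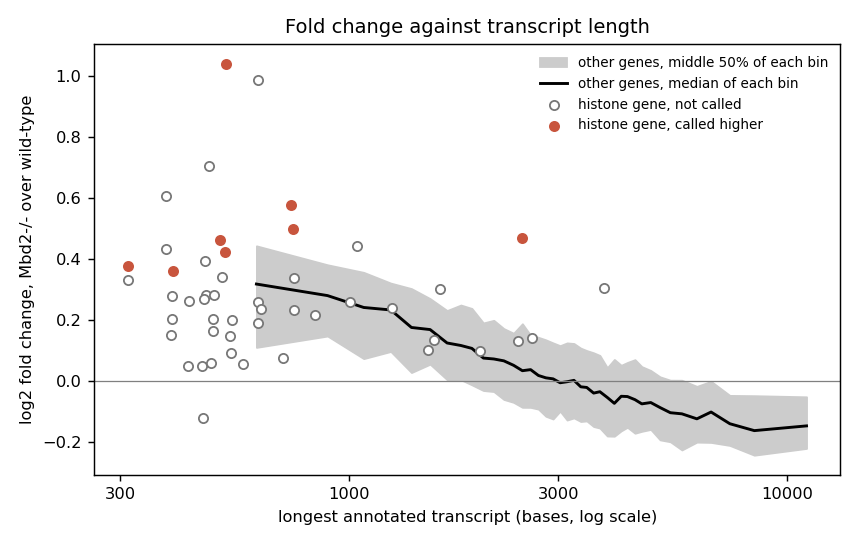
Log2 fold change of Mbd2-/- over wild-type against the longest annotated transcript in bases, on a log axis, for the 49 tested histone genes (points) and for other tested genes in 40 bins of 353 or 354 genes (line for the median, band for the middle 50%). Most histone genes lie in or near the band of other short genes, and Hist1h2ac lies above it at 2482 annotated bases with a log2 fold change of 0.47, where its length up to the stem-loop is 477 bases.

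The length difference was also a property of libraries. As a description across genes, which share their libraries, the Spearman correlation between transcript length and the log2 ratio to the wild-type mean was -0.07 to 0.06 in wild-type libraries. It was -0.48, -0.43 and -0.48 in Mbd2-/- 1 to 3 and -0.10 in Mbd2-/- 4, the library whose histone level was that of wild-type. Other genes under 1000 bases had median log2 ratios of 0.38, 0.31, 0.39 and 0.14 in Mbd2-/- 1 to 4 and of -0.03 to 0.02 in wild-type libraries. The summed choroid plexus markers were 51697, 53460, 53757 and 47362 in Mbd2-/- 1 to 4. Mbd2-/- 4 was thus the lowest Mbd2-/- library here too, and it lay above all wild-type libraries. How these measures relate to the histone values was not tested.

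When the trend on length was removed from each library, 1 of the 49 histone genes remained called, with 8.05% of all genes called higher, and the median log2 fold change was -0.065, with 19 of 49 positive. The called gene was Hist1h2bc (0.27, SE 0.0780, limma, Benjamini-Hochberg adjusted p = 0.0239), and of the other 7 calls, Hist1h2bm had 0.69 (adjusted p = 0.159), Hist1h2ac 0.42 (0.0563), Hist1h1b 0.19 (0.415), Hist1h2ab 0.10 (0.695), Hist2h2ac 0.07 (0.776), Hist1h4c -0.03 (0.842) and Hist1h4k -0.03 (0.859). Hist1h2ac and Hist1h1d entered with annotated lengths of 2482 and 3821 bases. Their lengths up to the stem-loop are 477 and 776 bases, at which the trend was not removed. Hist1h2bc entered with 736 bases over 2 exons. Its annotated transcript also runs past the stem-loop, and its length up to there was not computed, so its remaining call depends on the annotated length. Fitting the trend on genes other than histone genes gave the same count and median, and without Mbd2-/- 4 the count was 3, Hist1h1d, Hist1h2ac and Hist1h2bc, with a median of 0.0064 and 10.9% of all genes called higher. These last 2 settings were chosen after the data were seen. Beyond these fits, the part of the length difference in the histone values was not tested.

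**Figure D5:**
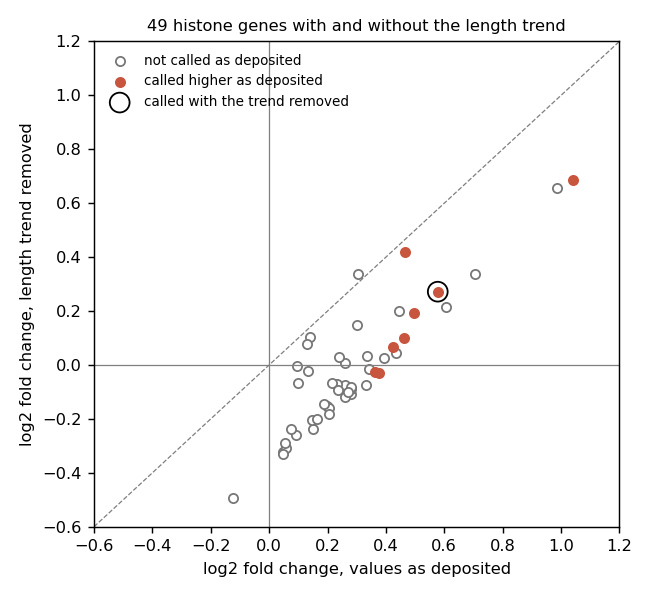
Log2 fold change of the 49 tested histone genes with the trend on transcript length removed (vertical) against the values as deposited (horizontal), with the diagonal dashed, filled points for the 8 genes called as deposited and a ring for the gene called after removal. Nearly all points lie below the diagonal and 19 lie above 0, and the ring marks Hist1h2bc at 0.58 and 0.27.

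Replication-independent histone genes, which are expressed outside S phase from polyadenylated mRNAs, rose in part as well. Of 11 tested, 5 were called higher and 0 lower, with a median log2 fold change of 0.19. Beside this and the following lists stand the shares of all tested genes, 12.0% higher and 10.0% lower. With no filter, with limma-voom and with TMM, upper quartile or CPM scaling the number called higher was 4. H3f3a, which encodes the variant H3.3, had normalized counts of 707, 745, 662 and 752 in wild-type libraries and 945, 941, 861 and 1002 in Mbd2-/- 1 to 4, with Mbd2-/- 4 the highest (0.39, SE 0.0639, limma, adjusted p = 0.000715). H3f3b, which encodes the same protein, had 1804 to 1914 against 1916 to 2098 and was not called (0.12, adjusted p = 0.0925). The other called genes were H2afv (0.44, adjusted p = 0.00617) and H2afz (0.28, adjusted p = 0.00735), which encode H2A.Z proteins, H2afj (0.39, adjusted p = 0.01001), and H1f0, the H1 of differentiated cells (0.22, adjusted p = 0.0494). With the length trend removed, 3 of this list were called, with 8.05% of all genes.

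Of 27 tested genes of S phase and mitosis, 1 was called higher and 0 lower, and the median log2 fold change was 0.01. Their summed normalized counts were 2063 to 2117 in wild-type and 2175 to 2263 in Mbd2-/- libraries, without overlap and with a ratio of means of 1.06, and the sum was not tested. The called gene was Pcna, the clamp of DNA polymerases, with 301 to 363 in wild-type libraries and 386, 443, 442 and 352 in Mbd2-/- 1 to 4 (0.32, SE 0.0862, limma, adjusted p = 0.0157). Pcna had means of 325 in wild-type and 405 in Mbd2-/- libraries, where the summed counts had means of 2101 and 2223. Much of the difference in the sum thus came from this gene. Mcm6, of the replicative helicase, and Rrm1, of ribonucleotide reductase, had -0.04 (adjusted p = 0.744) and -0.13 (adjusted p = 0.268).

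Factors that transcribe histone genes and process their mRNAs had 5 called higher and 2 lower of 31 tested, near the shares of all genes, with a median of -0.04. Those called higher were Snrpg (0.65, adjusted p = 0.00198), Snrpb (0.31), Snrpd3 (0.33) and Snrpe (0.31), Sm proteins that also serve spliceosomal snRNPs, and Lsm1 (0.46), of the cytoplasmic decapping complex. The lower ones were Upf1, a helicase of mRNA decay (-0.20, adjusted p = 0.0164), and Cpsf1, of the cleavage complex (-0.22, adjusted p = 0.0304). The longest transcripts have 741 bases for Snrpg, 1711 for Snrpb, 604 for Snrpd3, 669 for Snrpe and 2360 for Lsm1. Those of Upf1 and Cpsf1 have 4616 and 4515 bases. Slbp itself had 147 to 152 in wild-type libraries and 155 to 183 in Mbd2-/- libraries, without overlap but not called (0.16, SE 0.0868, adjusted p = 0.198), and Npat, the coactivator of histone genes, had a log2 fold change of -0.10 (adjusted p = 0.356). Slbp, Npat, Snrpe and Cpsf1 are given outside the rule for named genes, after their values were seen. Sympk and Cstf2t, of the cleavage complex, had -0.05 and -0.01 and were not called.

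Histone chaperones, which carry histones to and from DNA, had 3 higher and 2 lower of 26 tested, near the shares of all genes, and a median of 0.05. Rbbp4 (0.27), Npm1 (0.21) and Tonsl (0.32) were higher and Ubn1 (-0.19) and Cabin1 (-0.18) lower, whereas Atrx (-0.20, adjusted p = 0.155) and Nap1l5 (0.02) were not called. Of 16 genes of neural progenitors and immature neurons, 3 were higher and 2 lower, with a median of 0.02. Sox2 (0.41), Hes5 (0.56) and Stmn1 (0.36) were higher and Prox1 (-0.20) and Tbr1 (-0.19) lower, with Tubb3 (-0.10) and Neurod2 (-0.11) not called.

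Small structured RNAs, which like the stem-loop mRNAs lack poly(A), were mostly too few to judge, since 6 of 27 listed were tested. All 6 had positive log2 fold changes, with a median of 0.81, and 1 was called, the vault RNA Vaultrc5 (1.17, SE 0.198, limma, adjusted p = 0.000908). Its normalized counts were 27.0, 53.4, 56.5 and 37.2 in wild-type libraries and 109, 104, 79.7 and 90.3 in Mbd2-/- libraries, without overlap. Rmrp, the RNA of RNase MRP, had 31955 to 42062 in wild-type libraries and 62326, 47585, 57616 and 40999.5 in Mbd2-/- 1 to 4 (0.45, adjusted p = 0.0693), again with Mbd2-/- 4 inside the wild-type range. Rpph1, the RNA of RNase P, had 0.41 (adjusted p = 0.133) and Rnu12, a minor spliceosomal snRNA, 1.61 (adjusted p = 0.0645). The lengths of these RNAs were not matched to the annotation, so they were not in the fit with the length trend removed.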

How the data were processed

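RNA-seq libraries of mouse hippocampus were compared between 4 wild-type and 4 Mbd2-/- samples, grouped by their labels. Per the submitters' processing notes the tools were STAR and DESeq2 and the build mm9, with versions and the counting tool not given in the sources used here. The values deposited by the authors are gene counts divided by a size factor per library, a normalized signal. All values were whole reads within 0.01 read once multiplied back, which gave 8087750 to 23790825 reads per library. The authors also deposited columns of their own comparison (log2 fold change with its standard error, a test score, p-value and adjusted p-value), which were not used.

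The 14504 of 19201 genes that reached 10 normalized counts on average were tested in limma 3.58.1 (R 4.3.3) on log2(normalized count + 1), letting the prior variance follow the mean and using robust moderation. Fold changes are on that scale, which understates those of low genes. P-values were adjusted by the Benjamini-Hochberg method over all tested genes and called under 0.05. The exact permutation test was two-sided on normalized counts. Each library is a pool of mice, and p-values measure the spread between these pools. The script was tested on simulated data.

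Named genes were Mbd2, every called histone gene, the 3 with the highest mean count in each class, the highest and lowest fold change, and in each of 10 lists the called genes (at most 5) and the 3 highest in mean count. For the marker lists of other cells and tissues only counts and leading genes are given. Hist1h2bl, Hist1h2bg, Hist1h3b and the members of the head-to-head pairs were named after their values were seen. The histone genes and the lists were chosen with earlier results of these data known. Transcript lengths, from GENCODE vM1 on mm9, are those of the longest transcript and were matched for 16812 genes by symbol and 1290 by synonym, and 1099 had none. The length trend was a lowess curve (span 0.3) in each library. Alternatives were other pseudocounts, filters and scalings, edgeR 4.0.16 and DESeq2 1.42.0 on the recovered reads, limma-voom, a replicate block, removal of the length trend and leaving out each library.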

Additional observations from a re-analysis of the deposited data

Results flagged for a closer look

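In 166 groups of 4 libraries, covering the named genes and the summed measures, the highest or lowest library was compared with the other 3, and 11 stood apart by Dixon's test, which chance alone gives for about 1 group in 20. Among histone genes this was Hist1h2bj in Mbd2-/- 1, with a normalized count of 30.6 where the other Mbd2-/- libraries had 10.1 to 11.5.

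Among related genes, Snrpg was high in Mbd2-/- 3 (126, others 93.2 to 96.9) and Ubn1 low in Mbd2-/- 1 (898, others 925 to 931). Snrpb was low in wild-type 2 (646, others 724 to 737), and Cstf2t was high in wild-type 1 (1695, others 1584 to 1601). Of the tissue markers, Calb2 was high in wild-type 3 (609, others 535 to 546), Plekhg1 low in Mbd2-/- 3 (499, others 603 to 623), Fibcd1 low in Mbd2-/- 4 (1555, others 1798 to 1829) and Zbtb20 low in wild-type 2 (1318, others 1590.2 to 1640.0).

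The median log2 ratio of other genes under 1000 bases was lowest in wild-type 1 (-0.034, others 0.01 to 0.02). The correlation of log2 ratio with transcript length across genes was -0.10 in Mbd2-/- 4, where the other Mbd2-/- libraries had -0.48 to -0.43.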

How the results depend on the processing

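The number of histone genes called higher was 8 with a pseudocount of 0.5 or 5, without the filter, at a minimum mean of 50, and with TMM, upper quartile or counts-per-million scaling. It was 7 in edgeR, 6 in DESeq2 and 5 in limma-voom, with 6, 4 and 4 of the 8 genes among them, where 12.5%, 11.3% and 12.1% of all tested genes were called higher. None was called lower in any of these. At the minimum mean of 50, 7 of the 8 genes were the same, with Hist1h2bm no longer tested and Hist1h4d called. Removing the length trend left 1 gene and turned the median log2 fold change to -0.065, and the log2 fold changes of 11 named genes, to -0.026 for Hist1h4c, -0.030 for Hist1h4k, -0.070 for Hist1h1e, -0.023 for Hist1h1c, -0.0028 for Hist3h2a, -0.065 for Hist2h2bb, -0.072 for Hist3h2ba, -0.068 for Hist1h3e, -0.31 for Hist1h3i, -0.11 for Hist1h4d and -0.088 for Hist1h4h. With the trend fitted on other genes, the count was 1, the median -0.065, and the same genes in that order had -0.037, -0.040, -0.075, -0.023, -0.0027, -0.065, -0.080, -0.071, -0.32, -0.12 and -0.099. With the trend removed and without Mbd2-/- replicate 4, there were 3 genes and a median of 0.0064, and Hist1h1e had -0.030, Hist3h2ba -0.020, Hist1h3e -0.0022, Hist1h3i -0.30, Hist1h4d -0.068 and Hist1h4h -0.048. Leaving out 1 library gave 1 to 26 genes called higher and a median of 0.17 to 0.37, and a log2 fold change of Mbd2 from -0.56 to -0.35, whose call was lost without 3 of the libraries. In the same settings Hist1h3i had -0.084 to 0.17 and Hist1h2bj -0.48 to 0.034.

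Samples of the same replicate number did not deviate together (correlations of -0.10, -0.06, 0.07 and 0.04), so the numbers were not taken as pairs. With the replicate number as a block, 9 histone genes were called higher, without Hist1h4c and with Hist1h1d and Hist1h1e, the median was 0.26 and Mbd2 had an adjusted p of 0.00447 in limma. Over all alternatives, the named histone genes kept direction and side of the threshold in 323 values, lost the call in 66, gained it in 17 and changed sign in 32. The numbers called in the lists of related genes stayed the same or close in 391 values and moved further in 49. Among the latter were 9 for processing factors called lower and 8 for chaperones called lower. Depth limits the 9 histone genes with 7 to 79 reads, and the split of reads among near-identical copies limits the core histone genes that share windows.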
